A study of Homo sapiens with 6 samples.

Results

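GSTA1, GSTA2, FMO5, AADAC and HSD17B2 encode detoxification and steroid-oxidising enzymes of the absorptive intestinal cell, and their RNA was followed over 6 single-channel Affymetrix arrays of Caco-2 cells. The 5 genes were chosen by symbol, because earlier results of these data had placed them among the large falls, and each was read by 1 probe set. They are 5 of the 14884 genes that could be named. Caco-2 is a much-used line from a human colon carcinoma whose cells come to resemble enterocytes in culture. There were 3 groups of 2 arrays. The first carried FAM46A-shRNA#2 and the second FAM46A-shRNA#4, which are different short hairpin RNAs against FAM46A, now named TENT5A, which belongs to the non-canonical poly(A) polymerases. The third carried scramble shRNA, the control. Cells of all 3 groups were infected with lentivirus while subconfluent and harvested after 17 days, so infection itself is common to every array. The comparison addresses which transcripts differ after FAM46A depletion. The level of FAM46A was not analysed here, so the groups rest on their labels and the depletion is not shown.

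Enterocytes meet dietary and bacterial chemicals first, and they carry many of the detoxification enzymes better known from liver. In the usual scheme, phase I enzymes such as flavin monooxygenases and esterases expose or cleave a reactive group. Phase II enzymes then attach a soluble molecule, and glutathione transferases attach the tripeptide glutathione to electrophiles. Caco-2 cells acquire many of these enzymes as they differentiate after confluence.

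The deposited values were taken as log2, and in each probe set they are differences from its own median on these 6 arrays. Where the 4 hairpin arrays are alike, the median lies among them, so they sit near 0 and the scramble arrays carry the difference. Levels of different genes therefore cannot be compared. Errors after ± are standard errors (SE) of 1 limma fit to all 6 arrays, with n = 2 arrays per group. Over all probe sets, the replicate arrays of a group differed with an SD of 0.1205 for shRNA#2, 0.125 for shRNA#4 and 0.1305 for scramble. RNA came from whole cultures, so fewer cells of a type and less RNA per cell cannot be told apart. Because the members were chosen from the comparison with scramble, their values in it are a description and carry no test.

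GSTA1 and GSTA2 are alpha-class glutathione transferases, cytosolic enzymes that also reduce lipid hydroperoxides. GSTA1 (Entrez 2938) and GSTA2 (Entrez 2939) lie beside each other on the minus strand of chromosome 6. The 250 bases upstream of each start site (RefSeq, GRCh38.p14), at chr6:52803817-52804066 for GSTA1 and chr6:52763476-52763725 for GSTA2, are shown because the pair moved together and the windows are nearly the same. Capitals mark a TATA box (TATAAA) and the letters GTTAAT, part of the HNF1 site, which lie on the opposite strand and so read ATTAAC here.
GSTA1: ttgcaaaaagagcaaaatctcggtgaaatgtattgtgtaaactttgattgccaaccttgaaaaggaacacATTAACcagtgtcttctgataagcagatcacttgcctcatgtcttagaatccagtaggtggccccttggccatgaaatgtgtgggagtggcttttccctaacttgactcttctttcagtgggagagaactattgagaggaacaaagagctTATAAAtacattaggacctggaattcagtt
GSTA2: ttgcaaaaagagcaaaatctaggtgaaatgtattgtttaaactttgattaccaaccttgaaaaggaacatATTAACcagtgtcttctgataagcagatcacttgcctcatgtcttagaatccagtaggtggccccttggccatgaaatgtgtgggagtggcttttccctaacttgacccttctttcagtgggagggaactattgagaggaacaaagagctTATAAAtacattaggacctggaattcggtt
The windows were identical at 243 of 250 positions (97.2%). Counted from 1 at the 5′ end, with the GSTA2 base first and the GSTA1 base last, the 7 differences were A21C, T37G, A50G, T70C, C178T, G195A and G247A. None falls in the capitals. Of the other alpha-class genes, the windows of GSTA3, GSTA4 and GSTA5 matched that of GSTA1 at 27.6%, 23.2% and 21.6% of positions without gaps. Those windows were not aligned, and a shift of a few bases would lower such a match. These 3 values therefore cannot tell related windows from unrelated ones.

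GSTA1 stood at -0.06 and -0.44 in shRNA#2 cells and at 0.06 and -0.29 in shRNA#4 cells, against 3.53 and 3.49 in scramble cells. The 4 hairpin arrays lay together and the scramble arrays far above them, with 3.43 between the highest hairpin array and the lowest scramble array. The difference was -3.76 ± 0.16 with shRNA#2 (13.6-fold lower) and -3.63 ± 0.16 with shRNA#4 (12.4-fold lower). Its mean over both hairpins, -3.70 ± 0.14 (13.0-fold lower), ranked first among the falls of all 14884 genes. With quantile normalization of the centred values the mean difference was -2.58 (5.98-fold lower).

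GSTA2 stood at -0.14 and -0.08 in shRNA#2 cells and at 0.08 and -0.26 in shRNA#4 cells, against 2.07 and 1.91 in scramble cells. Here too the hairpin arrays lay together, 1.83 or more below the lower scramble array. The difference was -2.10 ± 0.12 with shRNA#2 (4.28-fold lower) and -2.08 ± 0.12 with shRNA#4 (4.24-fold lower), and its mean of -2.09 ± 0.10 was the 8th largest fall. After quantile normalization the mean was -1.49 (2.81-fold lower). GSTA1 thus differed from scramble by more than its neighbour did, by a further -1.67 on the log2 scale with shRNA#2 and -1.54 with shRNA#4. How far the probe sets of these close paralogs pick up each other's RNA was not analysed here.

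FMO5 (Entrez 2330, chromosome 1, minus strand) is a flavin-containing monooxygenase of the endoplasmic reticulum that inserts oxygen beside ketones, unlike its relatives, which oxidise nitrogen and sulfur. AADAC (Entrez 13, chromosome 3, plus strand) is arylacetamide deacetylase, a serine esterase of the endoplasmic reticulum that hydrolyses acetylated amines, several drugs and lipid esters. Their upstream windows (RefSeq, GRCh38.p14) are chr1:147225340-147225589 for FMO5, which lies inside the gene's full span, and chr3:151813866-151814115 for AADAC. They are shown for the letters that they share, or do not share, with the GSTA windows. Capitals mark in FMO5 the HNF1 letters (as ATTAAC) and TTTATAG, a match to the CDX letters TTTATNG that overlaps TATAAA on the opposite strand. In AADAC they mark TTTATTG, also a match to the CDX letters, and the GATA letters AGATAA, which occur 2 times.
FMO5: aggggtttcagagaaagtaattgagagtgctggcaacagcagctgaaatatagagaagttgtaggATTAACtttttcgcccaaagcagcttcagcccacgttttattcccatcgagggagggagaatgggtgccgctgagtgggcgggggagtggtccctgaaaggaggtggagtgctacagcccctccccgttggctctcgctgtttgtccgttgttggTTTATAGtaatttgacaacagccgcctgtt
AADAC: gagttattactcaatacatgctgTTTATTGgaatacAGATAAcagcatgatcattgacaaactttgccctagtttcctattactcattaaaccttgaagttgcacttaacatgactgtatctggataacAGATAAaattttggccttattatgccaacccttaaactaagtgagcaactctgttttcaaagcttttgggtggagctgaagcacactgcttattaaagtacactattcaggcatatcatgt

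Letters for 7 motifs were searched on both strands of 300-base windows (250 before to 50 after the start) of 35116 RefSeq starts. TATAAA occurred in 11.5% of all windows and in those of GSTA1, GSTA2 and FMO5, at -30 from the start in each. In GSTA1 and GSTA2 it lay on the strand shown, and in FMO5 on the opposite strand. GTTAAT occurred in 6.88% of all windows and in the same 3 of the 4 member windows, at -180 in GSTA1 and GSTA2 and at -185 in FMO5. AGATAA was in 10.3% of all windows and, of the members, in AADAC, at -214 and -121. The GSTA1 and GSTA2 windows hold TGATAA, which differs in its first letter and was not searched. TTTATNG was in 9.73% of all windows and in FMO5 and AADAC, at -30 and -227. The letters CAAAGTC of an HNF4 repeat (3.37% of windows), TGACNNNGC of the antioxidant response element (13.3%) and AGGTCA of nuclear receptors (13.8%) were in 0 of the 4. GC content was 40.8% in the GSTA1 window, 40.4% in GSTA2, 51.6% in FMO5 and 35.6% in AADAC, against a median of 58.0% over all windows. These matches describe letters, and whether a factor binds there was not tested. Windows were matched for 4 of the 5 genes, all but HSD17B2.

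FMO5 stood at -0.09 and 0.09 in shRNA#2 cells and at -0.21 and -0.24 in shRNA#4 cells, against 2.10 and 1.72 in scramble cells. The hairpin arrays lay together and 1.63 or more below the lower scramble array. The difference was -1.91 ± 0.13 with shRNA#2 (3.76-fold lower) and -2.13 ± 0.13 with shRNA#4 (4.38-fold lower), and the mean of -2.02 ± 0.11 was the 11th largest fall. It was -1.47 (2.76-fold lower) after quantile normalization.

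AADAC stood at -0.11 and -0.05 in shRNA#2 cells and within 0.001 of 0 on both shRNA#4 arrays, against 1.26 and 1.82 in scramble cells. Here the spread lay between the scramble arrays, and the hairpin arrays were 1.26 or more below both. The difference was -1.62 ± 0.17 with shRNA#2 (3.08-fold lower) and -1.54 ± 0.17 with shRNA#4 (2.91-fold lower), and the mean of -1.58 ± 0.15 was the 28th largest fall. Quantile normalization gave -1.12 (2.17-fold lower).

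**Figure D1:**
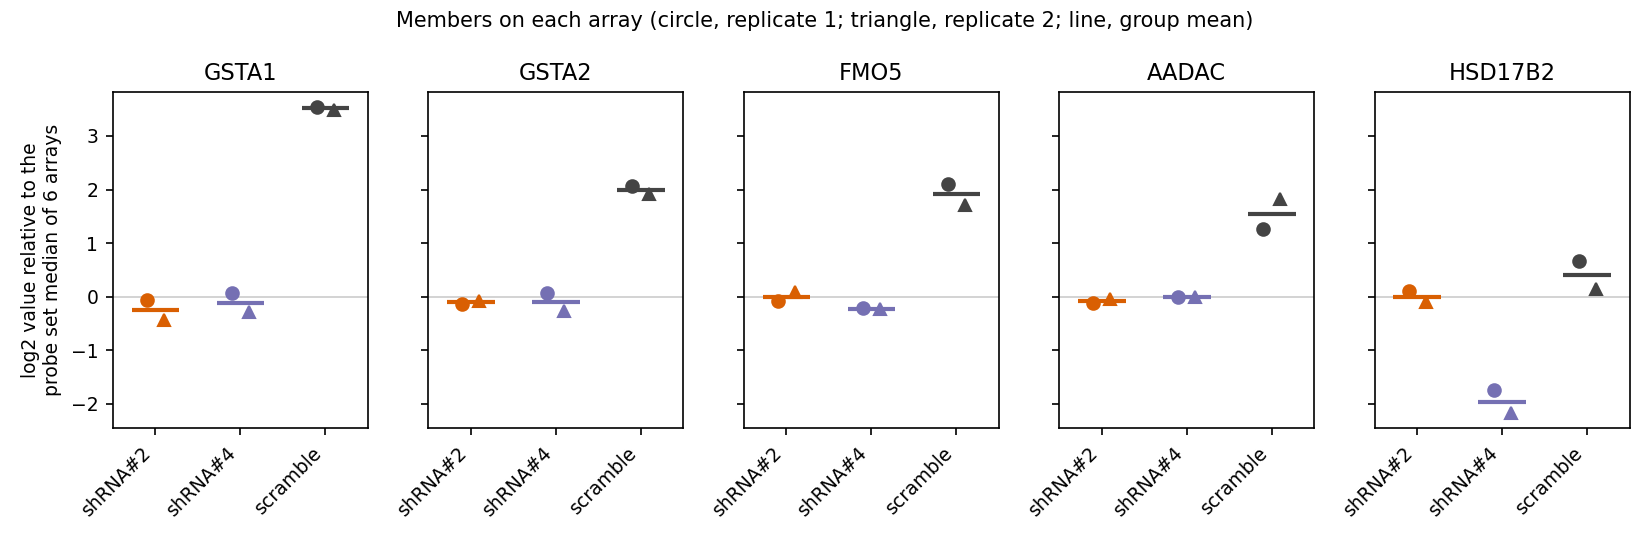
Log2 value of each gene on each array, relative to the probe set's median over the 6 arrays, for shRNA#2, shRNA#4 and scramble (circles, replicate 1, triangles, replicate 2, line, group mean). In GSTA1, GSTA2, FMO5 and AADAC both hairpin groups sit near 0 with scramble above them, while in HSD17B2 only the shRNA#4 arrays, at -1.75 and -2.17, are far from the rest.

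HSD17B2 (Entrez 3294, chromosome 16) is a hydroxysteroid dehydrogenase that inactivates estradiol and testosterone by oxidation, and it had another pattern. It stood at 0.10 and -0.10 in shRNA#2 cells and at -1.75 and -2.17 in shRNA#4 cells, against 0.66 and 0.14 in scramble cells. The shRNA#4 arrays lay far below all others, while the higher shRNA#2 array lay only 0.04 under the lower scramble array. The difference was -2.36 ± 0.21 with shRNA#4 (5.12-fold lower, the 6th largest fall with that hairpin) and -0.40 ± 0.21 with shRNA#2 (1.32-fold lower, rank 791). The shRNA#2 value rests on the scramble arrays, being -0.14 without scramble replicate 1 and -0.66 without scramble replicate 2. The mean over both hairpins, -1.38 ± 0.18 (2.60-fold lower), describes neither hairpin.

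In all 5 genes the 4 hairpin arrays lay below both scramble arrays, as they did in 16.7% of all genes. The members were chosen from this comparison, so nothing is read from that count. Their median difference was -2.02, beside 0.003 over all genes. Both hairpins were set against the same 2 scramble arrays.

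The difference between the hairpins does not use the scramble arrays, and for GSTA1, GSTA2, FMO5 and AADAC it played no role in the choice, so it was tested. Over all genes, 15.3% differed between shRNA#2 and shRNA#4 (limma, Benjamini-Hochberg adjusted p under 0.05), and the median absolute difference was 0.085. Of the 4 members 0 were called by limma, and 0 had an unadjusted p under 0.05. GSTA1 was at -0.14 for shRNA#2 minus shRNA#4 (95% interval of the fit -0.52 to 0.25, limma adjusted p = 0.692), and over 18 settings its adjusted p ranged from 0.301 to 0.948. GSTA2 differed by -0.01 (-0.30 to 0.27, limma adjusted p = 0.968, range 0.315 to 0.985). The corresponding value of FMO5 was 0.22 (-0.09 to 0.54, limma adjusted p = 0.351, range 0.119 to 0.741). AADAC differed by -0.08 (-0.49 to 0.33, limma adjusted p = 0.848, range 0.403 to 0.955). These intervals are wide, and they leave room for differences of up to 0.54 on the log2 scale. That of AADAC rests mostly on the scramble arrays, with an SD of 0.396 there and 0.044 in shRNA#2 cells. For FMO5 too the SD was largest in scramble cells, at 0.272, beside 0.122 in shRNA#2 and 0.018 in shRNA#4 cells. HSD17B2 was at 1.96 ± 0.21 (3.89-fold higher in shRNA#2 cells), the 2nd largest difference of that direction among all genes, and as it was chosen with that difference known it has no test.

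**Figure D2:**
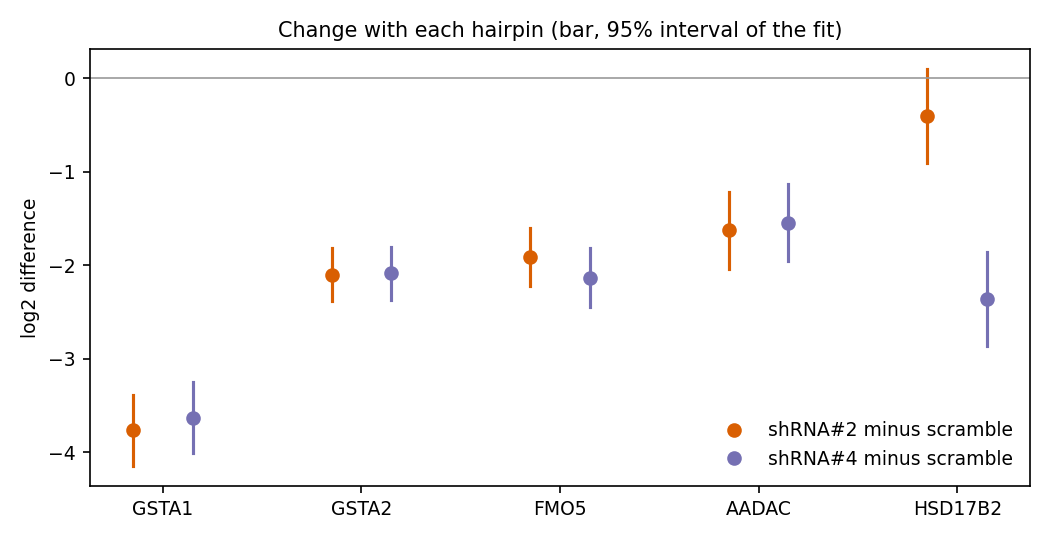
Log2 difference of each gene with shRNA#2 and with shRNA#4 against scramble (points) with the 95% interval of the fit (bars), shown as a description. The pair of points is close in GSTA1, GSTA2, FMO5 and AADAC, and apart in HSD17B2, at -0.40 and -2.36.

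The genes with the most similar array values (Euclidean distance over the 6 centred values) describe the same patterns. GSTA1 was nearest to APOA4, a chylomicron apolipoprotein (distance 0.99), which stood at -0.05 and -0.08 in shRNA#2 cells and at 0.03 and -0.03 in shRNA#4 cells, against 2.74 and 3.09 in scramble cells. GATM, of creatine synthesis, and TM4SF20 followed at 1.95 and 1.98. The nearest gene lay farther from GSTA1 than from any other member. GSTA2 was nearest to KLB, which pairs with receptors of gut-derived fibroblast growth factors (0.19), to the brush border lactase LCT (0.22) and to TM4SF20 (0.34). The nearest to FMO5 were TM4SF5 and KLB (0.37 each) and GSTA2 itself (0.39). AADAC was nearest to PLTP, a phospholipid transfer protein (0.32), the water and glycerol channel AQP10 (0.44) and SUSD2 (0.45). TM4SF4 lay nearest to HSD17B2 (0.52), at 0.36 and 0.08 in shRNA#2 cells and -1.77 and -2.17 in shRNA#4 cells, against 0.31 and -0.08 in scramble cells. The trefoil peptide TFF1 (1.23) and the metalloprotease ADAM9 (1.31) were farther from it.

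The nearest measured genes on the members' chromosomes were read in the same way, and some of them lie far from the member. Of the 24 other genes among the 3 measured on each side of each member, 4 fell, 2 rose and 18 were not called for the mean of both hairpins (limma adjusted p under 0.05), a comparison in which 25.4% of all genes were called. Their differences ran from -0.57 to 0.26. Beside the GSTA pair, TMEM14A fell by 0.57 ± 0.060 (limma adjusted p = 0.0015) and TRAM2, a membrane protein of the endoplasmic reticulum, by 0.54 ± 0.045 (0.000743). GSTA5 (-0.23 ± 0.075, 0.0797) and GSTA3 (-0.11 ± 0.047, 0.167), both on the same stretch, did not pass. CHD1L, a chromatin remodeller whose span holds FMO5, was at -0.06 ± 0.051 (0.467), and the AADAC relative AADACL2 was at 0.01 ± 0.041 (0.928). Of the next measured genes after HSD17B2, MLYCD, which degrades malonyl-CoA, fell by 0.38 ± 0.045 (0.00228) and HSBP1 rose by 0.26 ± 0.063 (0.0298). They are not close to it: HSD17B2 ends at base 82098534 of chromosome 16, and HSBP1 and MLYCD start at 83807978 and 83899115.

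**Figure D3:**
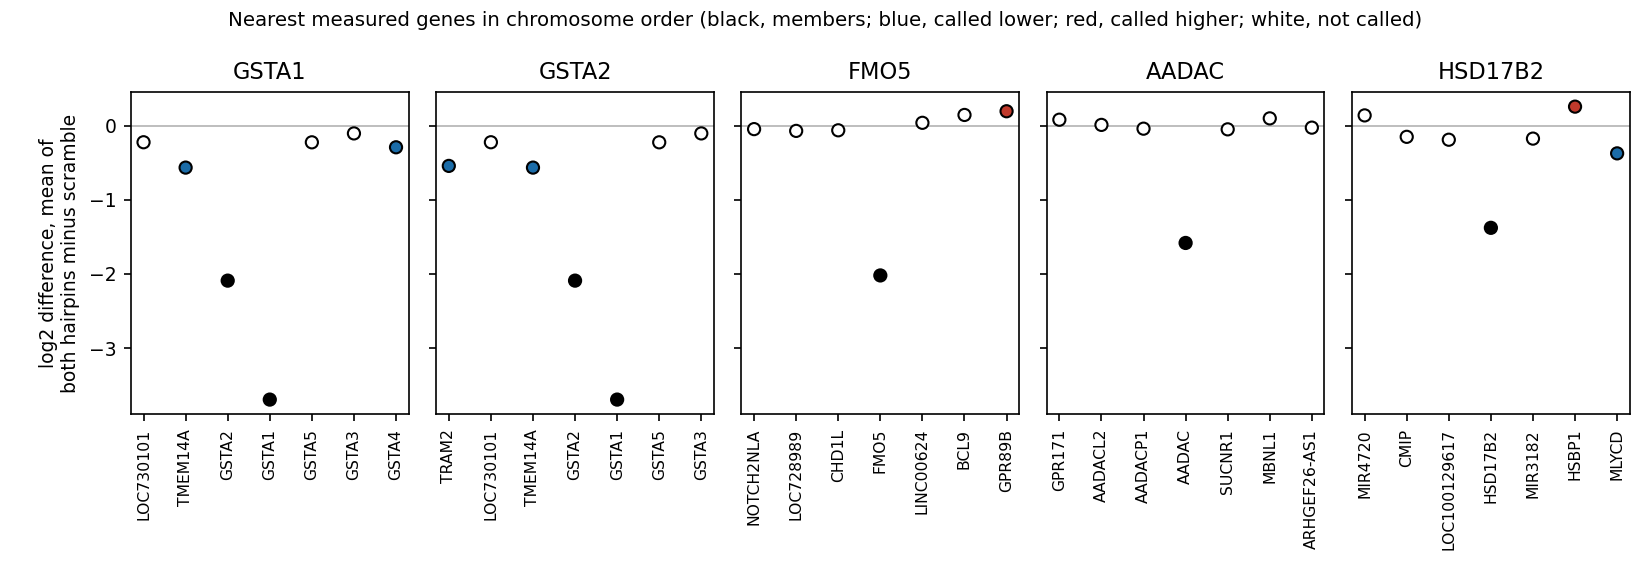
Log2 difference, mean of both hairpins minus scramble, of each member (black) and the 3 nearest measured genes on each side in RefSeq order (blue, called lower, red, called higher, white, not called). Every neighbour that is not a member lies between -0.57 and 0.26, above the member beside it.

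Of 19 other glutathione transferases and related enzymes measured, 5 fell, 1 rose and 13 did not pass the limma test (adjusted p under 0.05, mean of both hairpins), and the median was -0.08. The share called, 31.6%, stands beside 25.4% of all genes. GSTK1, the transferase of mitochondria and peroxisomes, fell by 0.57 ± 0.091 (0.00642), the mu-class GSTM4 by 0.46 ± 0.065 (0.00389) and the omega-class GSTO1 by 0.44 ± 0.071 (0.00657). MGST3, a membrane-bound form, fell by 0.26 ± 0.049 (0.0121), and MGST1, the microsomal form, rose by 0.46 ± 0.066 (0.00417). Of the alpha class, GSTA4, which conjugates the lipid peroxidation product hydroxynonenal, fell by 0.29 ± 0.060 (0.015). Its arrays stood at 0.13 and 0.06 in shRNA#2 cells and at -0.60 and -0.76 in shRNA#4 cells, against -0.004 and 0.004 in scramble cells, so shRNA#4 alone carried the fall, and the hairpins differed by 0.77 ± 0.069 (limma adjusted p = 0.00278). GSTP1, the pi-class enzyme, was at -0.34 ± 0.12 and did not pass (0.08). Leaving out scramble replicate 1 or scramble replicate 2, 3 of the 19 fell, and the calls of GSTA4 and MGST3 were lost.

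**Figure D4:**
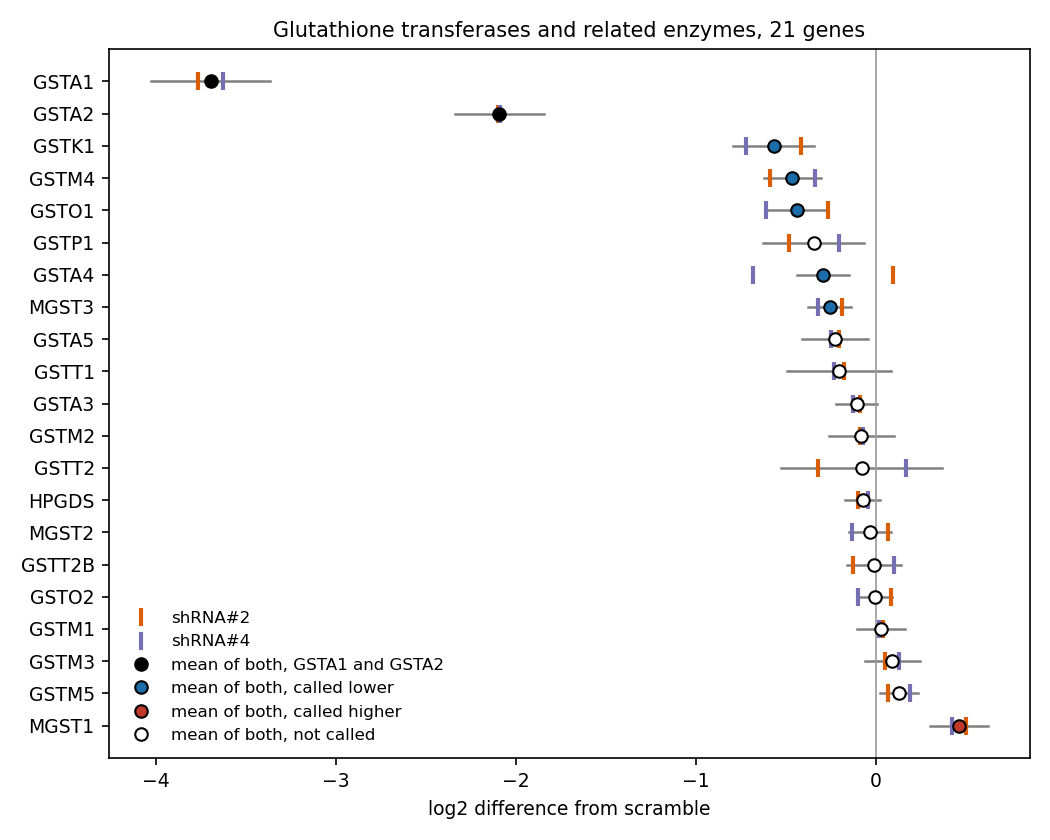
Log2 difference from scramble of the 21 glutathione transferases and related enzymes measured (points, mean of both hairpins with the 95% interval of the fit, ticks, each hairpin). GSTA1 and GSTA2, drawn in black as a description, lie at -3.70 and -2.09, and the others between -0.57 and 0.46.

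Of 18 measured genes of glutathione supply and of peroxidases, 5 fell and 1 rose (33.3% called, against 25.4% of all genes), with a median of -0.07. GPX8, a peroxidase of the endoplasmic reticulum, rose by 1.45 ± 0.096 (limma adjusted p = 0.000433). ANPEP, the brush border aminopeptidase that splits the dipeptide left from glutathione, fell by 1.23 ± 0.096 (0.000629), the secreted peroxidase GPX3 by 0.37 ± 0.055 (0.0046) and GPX7 by 0.36 ± 0.077 (0.0181). GPX7 was at 0.13 with shRNA#2 and -0.85 with shRNA#4, and its call was lost without scramble replicate 2, shRNA#2 replicate 2 or shRNA#4 replicate 1. The count of falls was 3 without scramble replicate 1 and 2 without scramble replicate 2.

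Among 9 measured relatives and partners of FMO5 (48 listed), 1 fell and 2 rose (33.3% called, against 25.4% of all genes). FMO4 fell by 1.26 ± 0.070 (limma adjusted p = 0.000264), by similar amounts with shRNA#2 (-1.28) and shRNA#4 (-1.24). FMO1 (-0.16 ± 0.046, 0.0559) and FMO2 (-0.06 ± 0.045, 0.412) did not pass. Cytochrome b5, the electron donor CYB5A, rose by 0.46 ± 0.067 (0.00453) and its mitochondrial form CYB5B by 0.40 ± 0.097 (0.0293). The call of CYB5B was lost without any 1 of scramble replicate 1, scramble replicate 2, shRNA#2 replicate 1 and shRNA#4 replicate 1.

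Of 20 measured esterases and hydrolases, the relatives of AADAC by function, 5 fell and 1 rose, with a median of -0.004. The share called was 30.0%, near the 25.4% of all genes. NAAA, an amidase of lipid ethanolamides, fell by 1.37 ± 0.059 (limma adjusted p = 0.000179) and CES1, the main carboxylesterase of liver, by 0.98 ± 0.13 (0.00312). The lactonases PON3 and PON2 fell by 0.89 ± 0.072 (0.000721) and 0.47 ± 0.052 (0.00179). CES1 differed between hairpins, at -1.33 with shRNA#2 and -0.63 with shRNA#4 (difference -0.70, limma adjusted p = 0.0283).

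Of 33 measured steroid and retinoid dehydrogenases, the relatives of HSD17B2, 12 fell, 4 rose and 17 did not pass (48.5% called, against 25.4% of all genes), with a median of -0.08. DHRS11, which acts on steroids, fell by 1.30 ± 0.11 (limma adjusted p = 0.000861), and HSD17B14 by 1.08 ± 0.082 (0.000595). RDH10, which oxidises retinol, fell by 1.08 ± 0.075 (0.000474) and HPGD, which inactivates prostaglandins, by 0.92 ± 0.11 (0.00228). HSD17B14 was at -1.09 with shRNA#2 and -1.06 with shRNA#4, a difference between the hairpins that did not pass (limma adjusted p = 0.915). Without scramble replicate 1 the rises numbered 1.

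Alcohol, aldehyde and amine oxidation genes gave 2 falls and 2 rises in 9 measured members (44.4% called, against 25.4% of all genes), with a median of 0.11. The monoamine oxidases MAOB and MAOA fell by 0.65 ± 0.055 (limma adjusted p = 0.000816) and 0.30 ± 0.081 (0.0401), while ADH6, an alcohol dehydrogenase, rose by 0.33 ± 0.062 (0.0114) and the carbonyl reductase CBR4 by 0.18 ± 0.046 (0.0354). Both rises were lost without scramble replicate 1 or scramble replicate 2, that of CBR4 also without shRNA#2 replicate 2 or either shRNA#4 array. The call of MAOA was lost without any 1 array other than scramble replicate 2. With shRNA#2 and shRNA#4 in turn, ADH6 was at 0.075 and 0.584, CBR4 at 0.284 and 0.067, and MAOA at -0.481 and -0.125. Of 16 measured conjugating transferases 5 fell and 2 rose (43.8% called, against 25.4% of all genes), with a median of -0.05. The rises numbered 0 without scramble replicate 2 and 1 without any 1 of the 4 hairpin arrays. The thiol methyltransferases TMT1B and TMT1A fell by 1.38 ± 0.063 (0.000181) and 0.93 ± 0.098 (0.00148). PAPSS2, which makes the sulfate donor, fell by 0.78 ± 0.081 (0.00145), at -0.296 with shRNA#2, which was not called, and -1.263 with shRNA#4. BAAT, which conjugates bile acids, rose by 0.67 ± 0.15 (0.0231). BAAT stood at -0.25 with shRNA#2 and 1.60 with shRNA#4, so its mean describes neither hairpin, and its call was lost without scramble replicate 2 or shRNA#2 replicate 2. Of 33 listed transporters 2 were measured, and both fell. They are the subunits of the basolateral bile acid exporter, SLC51B (-1.61 ± 0.099, 0.000322) and SLC51A (-0.54 ± 0.10, 0.0122, lost without scramble replicate 1).

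Of 29 measured transcription factors of enterocyte and xenobiotic genes 10 fell and 6 rose (55.2% called, against 25.4% of all genes), with a median of -0.05. CREB3L3, a membrane-bound factor of lipid metabolism in liver and intestine, fell by 1.44 ± 0.10 (limma adjusted p = 0.000504) and MAF by 0.95 ± 0.057 (0.000313). PROX1, a homeobox factor, rose by 0.99 ± 0.097 (0.00123) and NFE2L3, a relative of the antioxidant factor NRF2, by 0.73 ± 0.090 (0.00246).

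**Figure D5:**
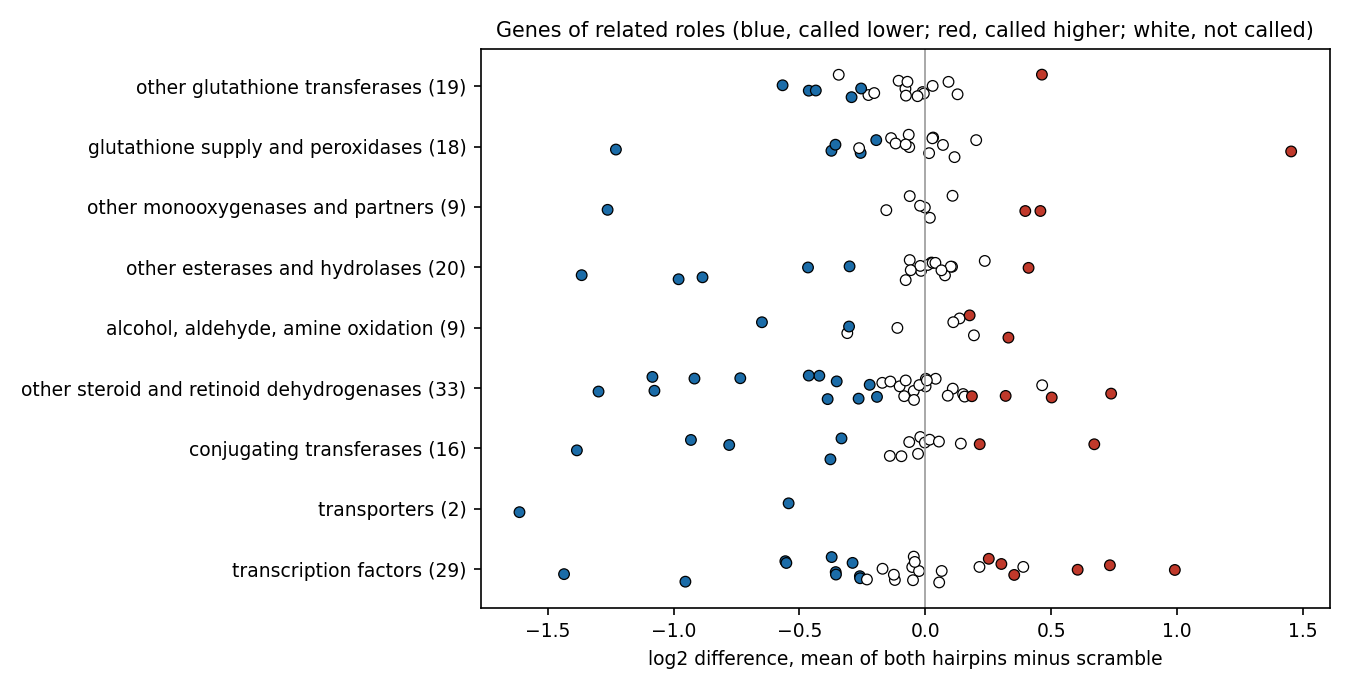
Log2 difference, mean of both hairpins minus scramble, of every measured gene in 9 lists of related roles (number measured in brackets; blue, called lower, red, called higher, white, not called). Falls outnumber rises in 7 of the 9 lists, and no gene reaches the differences of GSTA1, GSTA2 or FMO5.

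Over the 9 lists together 155 of 363 genes were measured, and 47 fell and 19 rose for the mean of both hairpins, which is 30.3% lower and 12.3% higher, beside 10.6% lower and 14.8% higher over all genes. The median of the 155 was -0.06. With shRNA#2 alone 39 fell and 17 rose, where 9.54% and 12.1% of all genes did, and with shRNA#4 alone 46 fell and 17 rose, where 10.4% and 15.7% did. Those comparisons share the scramble arrays. Fitted on all 6 arrays with the 4 hairpin arrays as 1 group, 28 fell and 9 rose, and CES1, GSTK1, GSTO1 and PAPSS2 were among the calls lost. The lists were drawn up with earlier results of these data known.

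Some markers of cell identity moved with these genes. Over all genes 10.6% were called lower and 14.8% higher for the mean of both hairpins, and the marker counts stand beside those shares. Of 16 measured enterocyte markers 14 fell for the mean of both hairpins, with a median difference of -1.21, and ANPEP and CDX2 stand both here and in the lists above. The median of their centred values was -0.07 and -0.08 in shRNA#2 cells and -0.03 and -0.06 in shRNA#4 cells, against 1.12 and 0.95 in scramble cells, so the groups lay apart as they did for GSTA1, GSTA2, FMO5 and AADAC. Of 12 hepatocyte markers 9 fell (median -1.03), and Caco-2 cells are known to make several of these plasma proteins. Of 10 crypt and cycling markers 5 rose (median 0.24). Of the remaining markers, 3 of 7 for simple epithelium, 2 of 7 for goblet cells and 2 of 5 for immune cells fell. Of 4 fibroblast markers 1 rose and 1 fell, and 0 of 6 enteroendocrine markers were called by limma, with 0 at an unadjusted p under 0.05. Centred values hold no level, so summed levels and absence of a marker could not be read. The part of these markers in the differences of the members was not tested.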

How the data were processed

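The 6 arrays and 3 groups of 2 follow the sample titles, and all columns were mapped, leaving 0 unmapped. Per the labels' protocols, biotin-labelled DNA was made from 100 ng of total RNA with the WT PLUS kit. The authors deposited values that were read as log2, and every one of the 48144 probe sets had a median within 1e-06 of 0 over the 6 arrays, with 0 values missing. For background correction, summarisation, normalization and log base, nothing is stated in these sources, and base 2 was assumed. Centring keeps differences between groups and removes levels, and how far a probe set lay above background was not analysed here.

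Probe sets were named through the platform table and the RefSeq table: 16098 had 1 symbol, 0 several and 32046 none. They gave 14884 genes, and 779 genes with more than 1 probe set were averaged. The group comparison used limma 3.58.1 (R 4.3.3) in a single model of the 6 arrays, with untrended eBayes variances (residual df 3, prior df 3.09). Calls were made at Benjamini-Hochberg adjusted p under 0.05 over all genes. The fit was tested on simulated data. Replicates are labelled biological, without a word on separate cultures, so the p-values cover only the spread of these samples, which may be technical. The number of arrays limits the precision.

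The members, the 9 lists of related genes and the markers were chosen with earlier results of these data known. Named were the members, all glutathione transferases, from each list up to 4 called genes that changed most (both hairpins averaged), the 3 genes nearest to each member by Euclidean distance, and the 3 measured genes on each side in RefSeq order. Promoter windows came from RefSeq (GRCh38.p14), and motifs were matched letter by letter. The alternatives tried were a replicate block, a variance trend, a robust prior, array weights, array centring, quantile normalization, other probe set choices, protein-coding genes only, only the arrays compared, a threshold of 0.01 and each array left out in turn. Scripts ran under Python 3.11.15 with pandas 2.3.3 and matplotlib 3.10.9.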

Additional observations from a re-analysis of the deposited data

Results flagged for a closer look

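In 23 of the genes named in the text or in the plot of chromosome neighbours the hairpins differed from each other, so the mean of both hairpins hides unequal changes. Over all genes 15.3% differed between the hairpins, and 31 of the 155 measured list genes did. Some of the 23 were named for that pattern or after their values were seen, so nothing is read from the count. All values are shRNA#2 minus shRNA#4 on the log2 scale, with limma adjusted p-values over all genes, and all rest on 2 arrays per group. HSD17B2 differed by 1.96 and, as it was chosen with that difference known, has no test. TM4SF4 (2.19), ADAM9 (1.54) and TFF1 (1.15), named for their likeness to HSD17B2 on the same arrays, have none either. Higher with shRNA#2 than with shRNA#4 were GPX7 (0.98, adjusted p = 0.00282), PAPSS2 (0.97, 0.00304), GSTA4 (0.77, 0.00278), MAF (0.38, 0.0153), GSTO1 (0.35, 0.0385), NAAA (0.32, 0.0287) and CBR4 (0.22, 0.0429). Lower with shRNA#2 were BAAT (-1.85, adjusted p = 0.00304), DHRS11 (-0.73, 0.0168), CES1 (-0.70, 0.0283), GPX8 (-0.59, 0.0191), ADH6 (-0.51, 0.00819) and TMT1B (-0.45, 0.012), and so was the microRNA gene MIR4720 near HSD17B2 (-0.58). Of the list genes singled out after their values were seen, DHRS3 (0.52, adjusted p = 0.00348), HSD17B11 (0.32, 0.02) and GATA4 (0.30, 0.0207) were higher with shRNA#2, and HSD17B10 (-0.55, 0.0238) and NFE2L2 (-0.18, 0.0467) lower. In 6 of the 23, GSTA4, GPX7, BAAT, TM4SF4, ADAM9 and MIR4720, the differences of the hairpins from scramble had opposite signs. With shRNA#2, GSTA4 (0.09), GPX7 (0.13), BAAT (-0.25) and MIR4720 (-0.15) were not called by limma. For these genes opposite changes are therefore not shown. TM4SF4 was at 0.10 with shRNA#2 and -2.09 with shRNA#4, and ADAM9 at 0.30 and -1.24.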

How the results depend on the processing

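The members' differences from scramble kept their sign under every alternative run, and quantile normalization of the centred values gave the smallest for GSTA1, GSTA2, FMO5 and AADAC. There GSTA1 was at -2.67 with shRNA#2, -2.50 with shRNA#4 and -2.58 for the mean of both, GSTA2 at -1.50, -1.49 and -1.49, FMO5 at -1.33, -1.60 and -1.47, and AADAC at -1.17, -1.07 and -1.12. Leaving out each array in turn gave, for the mean of both hairpins, -3.79 to -3.60 for GSTA1, -2.18 to -2.01 for GSTA2, -2.21 to -1.83 for FMO5, -1.86 to -1.30 for AADAC and -1.64 to -1.12 for HSD17B2. With shRNA#2 FMO5 ran from -2.10 to -1.72 and AADAC from -1.90 to -1.34, and with shRNA#4 FMO5 from -2.32 to -1.94, AADAC from -1.82 to -1.26 and GSTA2 from -2.25 to -1.92.

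Counts of called genes moved more. With an adjusted p under 0.01 they were 1575 with shRNA#2, 2122 with shRNA#4, 2158 for the mean and 769 between the hairpins, and 43 list genes, 10 of them higher. With all 6 arrays kept and the 4 hairpin arrays as 1 group, 1756 genes and 37 list genes (28 lower, 9 higher) passed for the mean. In that fit differences between the hairpins count as spread. Leaving out 1 array gave 1756 to 2982 genes with shRNA#2, 2677 to 3476 with shRNA#4, 2477 to 3358 for the mean and 761 to 2166 between the hairpins, and 47 to 61 list genes (34 to 45 lower, 12 to 16 higher). The lowest counts came without shRNA#2 replicate 1 (1756 with shRNA#2 and 761 between the hairpins), without scramble replicate 1 (2477 for the mean) and without scramble replicate 2 (12 list genes higher). The cause was not tested. Of the 66 called list genes 31 kept the call in every alternative, as did 22 of the 35 named.

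Replicate numbers are shared by the groups, but only 2 exist, so they were treated as numbers alone. Same-numbered arrays deviated together with correlations of 0.179 (shRNA#2 and scramble), 0.119 (shRNA#4 and scramble) and 0.199 (shRNA#2 and shRNA#4). With the replicate block 3598 genes passed with shRNA#2, 4227 with shRNA#4, 4160 for the mean and 2637 between the hairpins, and 75 list genes (51 lower, 24 higher). A filter on dim probe sets was not run, because centred values hold no level.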

Other observations

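Further genes of the transcription factor and dehydrogenase lists, singled out after their values were seen, moved as well (mean of both hairpins minus scramble, limma adjusted p over all genes). The intestinal and hepatic factors were not of 1 direction. GATA4, a zinc finger factor of the proximal intestine, fell by 0.56 ± 0.051 (adjusted p = 0.000974) and the fatty acid receptor PPARA by 0.55 ± 0.071 (0.00289), while the forkhead factor FOXA2 rose by 0.61 ± 0.065 (0.00158). CDX2, the intestinal homeobox factor, fell by 0.26 ± 0.065 (0.0318), a call lost without any 1 of 4 arrays. Of the antioxidant system, NFE2L2 (NRF2) rose by 0.35 ± 0.040 (0.00184) and its inhibitor KEAP1 by 0.30 ± 0.053 (0.00857, lost without scramble replicate 2), while NFE2L1 fell by 0.37 ± 0.054 (0.00429).

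Among the relatives of HSD17B2, HSD17B10, a mitochondrial enzyme, rose by 0.74 ± 0.096 (limma adjusted p = 0.00302) and HSD17B11, a lipid droplet enzyme, fell by 0.74 ± 0.052 (0.000497). Both were unequal between the hairpins, HSD17B10 at 0.46 with shRNA#2 and 1.02 with shRNA#4 (difference adjusted p = 0.0238) and HSD17B11 at -0.58 with shRNA#2 and -0.89 with shRNA#4 (0.02). DHRS3, which reduces retinal to retinol, fell by 0.46 ± 0.046 (0.00127), at -0.20 with shRNA#2 and -0.72 with shRNA#4 (difference 0.00348). RDH10, which acts in the opposite direction, stood at -1.05 with shRNA#2 and -1.12 with shRNA#4.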
